A study of Oryctolagus cuniculus with 18 samples.

Results

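The 200 genes described here were the most RPE-choroid-biased genes of the rabbit eye among those whose level in operated retina did not exceed the non-operated retina in every library. They were chosen by their measured levels, out of 29587 Ensembl rabbit genes, under 3 conditions on CPM (counts of a gene after each library's gene counts are scaled to one fixed total). The log2 ratio of the non-operated retina mean to the non-operated RPE-choroid mean, each with 0.5 CPM added, had to be at most -2. The non-operated RPE-choroid mean had to be at least 16 CPM. The lowest of the 6 operated retina values could not lie above the highest non-operated retina value. Of 1093 genes that met the first conditions, 577 also met the third and 516 did not, because all 6 of their operated retina values lay above the non-operated ones. The 200 with the most negative ratio were taken.

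RNA was sequenced from male rabbits of 4 to 6 months. The eyes were non-operated, or had their vitreous removed and replaced by poly(CEP), a multiblock thermogelling polymer of PEG, PPG and PCL that sets to a gel at body temperature, and were sampled 1 or 2 months later. Each of the 3 groups gave 3 retina and 3 RPE-choroid samples, 18 in all. The labels call the second tissue retinal pigment epithelium, and the study's methods call it RPE-choroid, peeled from the sclera after the retina had been pulled away. No eye had its vitreous removed without receiving the polymer, so surgery and polymer cannot be told apart, and the study lists its 2-month eyes without induced scarring as the fellow eyes of eyes in which scarring had been induced, without stating which of them were sequenced. The study calls the 3 samples of a group biological replicates and lists its 1-month eyes without induced scarring as separate cases, while the labels do not name the animals.

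The retinal pigment epithelium is a single layer of pigmented cells behind the photoreceptors. It takes up shed photoreceptor tips, returns vitamin A compounds to the visual cycle, and with its tight junctions forms the outer blood-retinal barrier. The choroid below it is a bed of blood vessels, pigment cells and connective tissue that supplies the outer retina. A gene that is abundant in this sheet and nearly silent in the neural retina can therefore come from any of these cell types. The count table carries Ensembl identifiers only, and 0 of its 29587 identifiers matched the 38822 rows of the RefSeq gene table used here, so the genes are given by identifier, or by their place when ranked by mean non-operated RPE-choroid CPM, and marker genes of the labelled tissue could not be looked up.

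By the values that chose them, the genes had log2 ratios from -10.30 to -4.84, with a median of -6.05, which is 66.3-fold more CPM in RPE-choroid. The genes in places 199 and 200 of that ratio were at -4.85 and -4.84, and the next eligible genes were at -4.83 and -4.81. In all, 323 genes had a ratio at or below that of place 200, and 123 of them were left out because every operated retina value lay above the non-operated ones. Mean non-operated RPE-choroid levels ran from 17.8 to 7397 CPM with a median of 97.4, against a median of 0.396 CPM in non-operated retina. Across the 9 RPE-choroid libraries 192 of the genes stayed at 1 CPM or more and 123 at 16 CPM or more. In retina, 87 genes stayed under 1 CPM in all 9 libraries, 1 had no count in any of them, and 151 had at least 1 count in each.

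The condition on operated retina let many of these genes through on the strength of a few libraries. Only 10 of the 200 genes had no operated retina value above the highest non-operated one. The numbers with 1, 2, 3, 4 and 5 of the 6 operated values above it were 21, 27, 40, 49 and 53. For 102 genes, then, 4 or 5 of the 6 operated retinas were higher, and the name "not raised in operated retina" does not describe them. A single library decided many of them: replicate 3 at 2 months was the lowest of the 6 for 75 genes, and for 32 of the 53 genes with 5 values above, it was the only library at or below the non-operated level. With that library left out of the condition, an alternative added after seeing the data, 435 genes instead of 577 were eligible, and 168 of the 200 genes (84%) were chosen again.

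**Figure D1:**
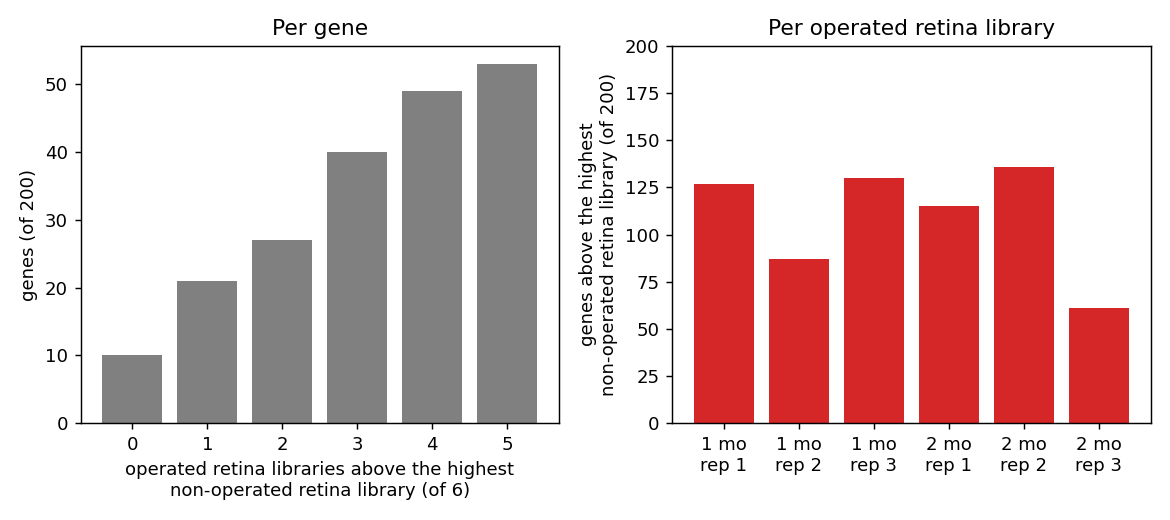
Left, number of the 200 genes (vertical axis) by how many of the 6 operated retina libraries lay above the highest non-operated retina library (horizontal axis). Right, for each operated retina library (mo, month; rep, replicate), how many of the 200 genes lay above the highest non-operated retina value; the bars run from 61 genes in replicate 3 at 2 months to 136 in replicate 2 at 2 months.

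Summed over the 200 genes, non-operated retina held 495, 511 and 512 CPM. The 1-month retinas held 883, 712 and 999 CPM, each above every non-operated retina. At 2 months replicates 1 and 2 held 1422 and 1795 CPM, the highest of all retinas, while replicate 3 held 490 CPM, below the non-operated ones. Gene by gene, the mean in operated retina was above the non-operated mean for 181 of 200 genes at 1 month and for 166 at 2 months, and more than 2-fold above it for 24 and 36. The rule used these values, so they are given as a description, with no test.

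In RPE-choroid the 200 genes took a large share of all gene counts, and this share was lowest 1 month after surgery. It was 7.17%, 9.02% and 3.49% in non-operated eyes (mean 6.56% ± 2.81, SD, n = 3). It was 2.24%, 1.58% and 4.12% at 1 month (2.65% ± 1.32, n = 3) and 6.14%, 6.27% and 8.29% at 2 months (6.90% ± 1.21, n = 3). The 1-month and 2-month libraries did not overlap. The non-operated libraries spanned both groups, with replicate 3 between the 1-month values and replicate 2 above all others. The 10 most abundant genes made up between 49.5% and 57.8% of the summed level in each library, so the median over genes is the steadier measure. It was 110.0, 131 and 47.3 CPM in non-operated eyes, 34.5, 22.9 and 49.4 CPM at 1 month, and 96.9, 99.7 and 120 CPM at 2 months. In these bulk samples fewer cells of a type and less RNA per cell cannot be told apart.

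Genes of the neural retina stood the other way round in the same libraries. The 200 genes with the highest ratio of retina to RPE-choroid among those with at least 16 CPM in non-operated retina, called retina-high here, took 1.77%, 0.120% and 4.82% of gene counts in non-operated RPE-choroid, 3.71%, 4.34% and 1.87% at 1 month, and 0.870%, 0.954% and 0.0648% at 2 months. In non-operated retina they took between 8.34% and 9.01%. Every 1-month RPE-choroid library was therefore above every 2-month library in retina-high genes, and the non-operated library with the most of them, replicate 3, was the non-operated one with the lowest share of the 200 RPE-choroid genes. All genes at 0 in an RPE-choroid library on this list were in non-operated replicate 2, with 14, and in 2-month replicate 3, with 18. Multiply aligned reads also differed between the groups, at 8.86% ± 0.662 at 1 month and 12.3% ± 2.02 of reads at 2 months (SD, n = 3). Since retina-high levels did not overlap between 1 and 2 months, their part in that comparison cannot be told apart from time. Some fits that follow take these levels into account. The part of the multiply aligned reads was not tested.

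**Figure D2:**
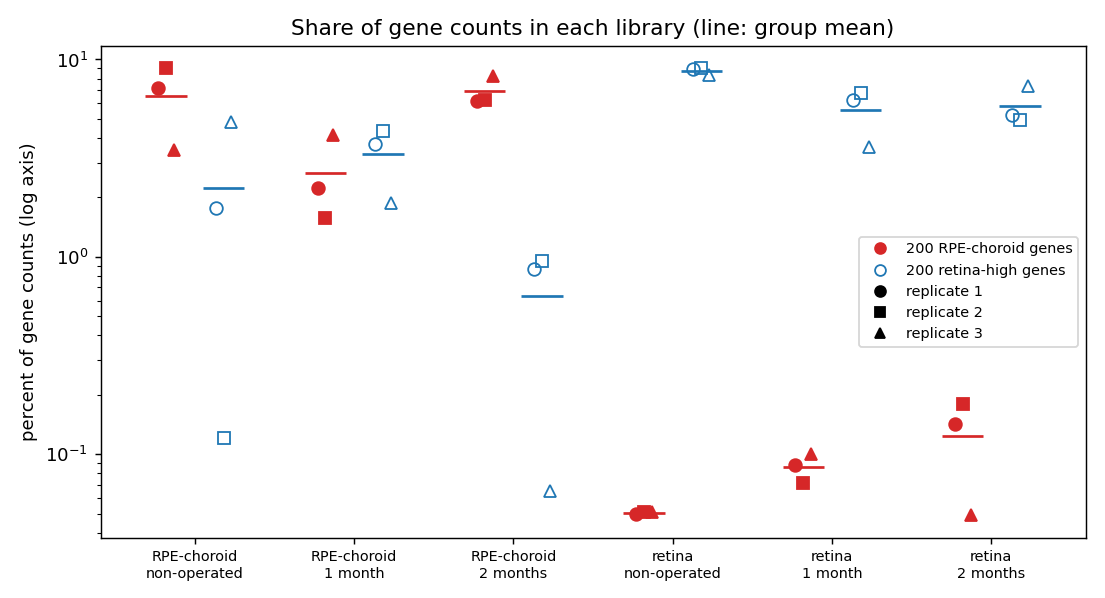
Percent of each library's gene counts (vertical log axis) on the 200 RPE-choroid genes (filled) and on the 200 retina-high genes (open), for 3 libraries per group; marker shapes give the replicate and lines the group mean. In RPE-choroid the filled points are lowest at 1 month (mean 2.65%) where the open points have their highest mean (3.31%).

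The comparison of 2 months with 1 month in RPE-choroid is the one in which neither group had been used to choose the genes. Nearly all of the 200 genes were higher at 2 months, but none passed the adjusted test. The median log2 fold change was 1.63, against 0.01 over all 16322 genes tested, and 197 of the 200 fold changes were positive, where 50.7% of all genes were. The middle of the distribution was narrow, with quartiles of 1.26 and 1.86. By CPM alone, all 3 values at 2 months lay above all 3 at 1 month for 144 genes and below for 0, and 56 overlapped, while 20.2% of all genes tested lay wholly above and 26.4% wholly below. In edgeR's quasi-likelihood test 0 of the 200 genes were called in either direction, as were 0% of all genes, and the smallest adjusted p was 0.0503. At an unadjusted p under 0.05, 143 were higher and 0 lower, where 18.9% of all genes were higher.

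These calls sat at the edge of the threshold and moved with the fit. DESeq2 called 129 of the genes higher and 1 lower, with 11.8% of all genes higher and 7.4% lower. The edgeR test called 122 higher when only the 6 libraries compared were fitted, where 12.3% of all genes were. Leaving out non-operated replicate 2 or replicate 3, which belong to neither group compared, gave 101 and 117 genes higher, with 8.3% and 11.5% of all genes. With the replicate number as a block the count stayed at 0 and the median was 1.62, and with the retina-high level as a covariate it stayed at 0 and the median was 1.05. That level (mean log2 CPM) was 4.89 to 5.97 at 1 month and 0.40 to 4.05 at 2 months. The covariate and time therefore cannot be told apart in this fit.

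Among other RPE-choroid-preferring genes the same comparison gave similar values. The 516 genes that were higher in all 6 operated retinas had a median log2 fold change of 1.23, with 507 positive, and 400 of them (77.5%) lay wholly above at 2 months. The 123 of these with a tissue ratio as extreme as the 200 genes had a median of 1.5, with 122 positive. The 377 genes that met the retina condition but ranked after place 200 had a median of 1.28, with 375 positive. A higher level at 2 months than at 1 month was thus shared across genes of this tissue, and was not tested as a property of the 200.

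When the libraries were scaled on the 893 other RPE-choroid-preferring genes in place of all genes, most of the difference was gone. The median log2 fold change of the 200 genes was then 0.38, with 159 positive, beside 250 of the 516 genes and 205 of the 377. Over all genes 9.96% were positive, a share lowered from 50.7% by the scaling itself. The 893 genes are the 516 and the 377 together, so their medians, -0.02 and 0.03, lie near 0 by construction. The median over all genes moved to -1.28. On this scale 15 of the 200 genes were higher and 0 lower at an adjusted p under 0.05, where 0.533% of all genes were higher and 49.5% lower. Of the 516 genes 18 were higher and 21 lower on this scale, and of the 377 genes 7 and 7, so calls were not limited to the 200. Fold changes of the 15 ran from 0.85 to 8.42 on the log2 scale. All 15 lay wholly above at 2 months by CPM, and all 15 were also called by DESeq2. Both of those measures use scaling over all genes, so they are no separate check on the 15. There 144 of the 200 lay wholly above and DESeq2 called 129 higher. With the replicate block added on this scale 0 were called, and leaving out each library in turn gave between 0 and 33, with 0 for any of 1-month replicates 1 and 2 and 2-month replicates 1, 2 and 3. Summed levels gave the same picture. The 200 genes held 0.326, 0.297 and 0.422 of the summed level of the 893 others at 1 month, 0.429, 0.420 and 0.454 at 2 months, and 0.538, 0.514 and 0.463 in the non-operated libraries that chose them. The values at 1 and 2 months overlapped only through 1-month replicate 3, which at 0.422 lay above the lowest 2-month value.

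**Figure D3:**
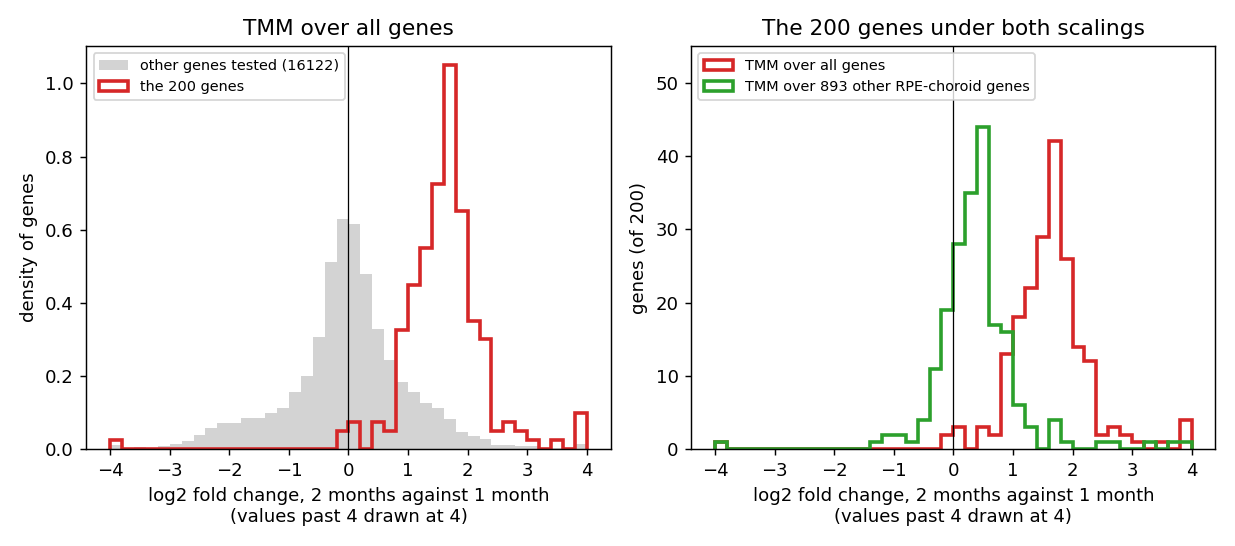
Left, log2 fold change at 2 months against 1 month in RPE-choroid with TMM scaling over all genes, as the density of genes, for the 200 genes (line, median 1.63) and the other genes tested (grey). Right, number of the 200 genes by fold change under that scaling (red) and under scaling on the 893 other RPE-choroid-preferring genes (green, median 0.38), where the values sit closer to 0.

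The most abundant genes differed in how far they followed this. The gene in place 1 was at 7763, 10814 and 3616 CPM in non-operated RPE-choroid, 2455, 1469 and 4487 CPM at 1 month, and 10245, 13233 and 11721 CPM at 2 months. Its 2-month values lay above all of its 1-month values and spanned the highest non-operated one, and it was one of the 15 called on the RPE-choroid scale, where its log2 fold change was 0.98. In retina it was at 80.4, 90.9 and 83.9 CPM without surgery, at 73.3, 55.1 and 190 CPM at 1 month and at 373, 479 and 84.0 CPM at 2 months. The gene in place 2 was at 1950, 1437 and 5527 CPM at 1 month and 4624, 2962 and 9552 CPM at 2 months in RPE-choroid. Its groups overlapped, since replicate 3 was the highest library in each. The gene in place 4 had the same form more strongly, at 1164, 953 and 4469 CPM at 1 month and 2151, 1458 and 7362 CPM at 2 months.

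Of genes whose groups did not overlap, the smallest p-values belonged to a pair of low-abundance genes. ENSOCUG00000011128, in place 191, was at 17.7, 10.2 and 13.4 CPM at 1 month and 41.8, 47.4 and 36.2 CPM at 2 months in RPE-choroid, with 23.1, 19.0 and 16.9 CPM in non-operated eyes. Its log2 fold change was 1.68 (SE 0.22, n = 3 per group, edgeR adjusted p = 0.0503). ENSOCUG00000015089, in place 176, was at 22.4, 14.7 and 22.4 CPM at 1 month and 54.2, 60.0 and 67.1 CPM at 2 months, with 28.0, 26.2 and 21.6 CPM in non-operated eyes. Its log2 fold change was 1.70 (SE 0.23, n = 3 per group, edgeR adjusted p = 0.0503). For both genes every 2-month value lay above every 1-month and every non-operated value. Neither was among the 15 genes called on the RPE-choroid scale. Of the 200 genes, 0 lay wholly below at 2 months.

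Relative to non-operated eyes, whose RPE-choroid values had chosen the genes, the 1-month values were lower and the 2-month values close. At 1 month the median log2 fold change was -1.39 with 0 positive, where 49.3% of all genes were, and 64 of the 200 genes had all 3 values below all 3 non-operated ones, where 8.72% of all genes did. At 2 months the median was 0.19 with 122 positive, where 48.6% of all genes were, and 26 genes lay wholly above and 1 wholly below, where 12.4% and 3.58% of all genes did. These values are a description, with no test, because the non-operated values had chosen the genes. Without non-operated replicate 3 the 2-month median turned to -0.17. On the RPE-choroid scale the medians were -0.43 at 1 month and -0.04 at 2 months.

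The tissue bias that had chosen the genes was also seen after surgery. Operated retina values had entered the rule as well, so the values that follow are a description, with no test. Within 1-month eyes the median log2 ratio of retina to RPE-choroid was -4.47, and within 2-month eyes it was -5.86. It stayed at or below -2 for 192 and 198 of the 200 genes. Every RPE-choroid value lay above every retina value for 193 genes at 1 month and 197 at 2 months, where 12% and 19.1% of all genes with a count did. Over all genes, 602 genes at 1 month and 1393 at 2 months had a ratio at or below -2.

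Once each library's overall level was removed, the RPE-choroid profiles of the 200 genes sorted by group only in part. Replicates 1 and 2 at 1 month were the closest pair, with an SD of 0.31 for the log2 difference over the 200 genes, followed by replicates 1 and 2 at 2 months with 0.49. Replicate 3 at 1 month stood 1.15 and 1.14 from replicates 1 and 2 of its own group, and 0.58 from non-operated replicate 3. Replicate 3 at 2 months stood 1.16 and 1.46 from its own group, and 0.88 from non-operated replicate 3. The first principal component carried 51.4% of the variance. It placed both of these libraries with non-operated replicates 1 and 3 on one side, from 0.411 to 0.670. The other operated libraries were on the other side, from -0.828 to -0.333, and non-operated replicate 2 was between, at -0.057. The second component carried 20.6% and set the 1-month libraries apart, at -0.371, -0.323 and -0.289. On it the 2-month libraries were at -0.031, 0.115 and 0.042, and the non-operated ones at 0.183, 0.744 and -0.070. The labels give no batch, so what separates these libraries was not tested.

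The genes that set replicate 3 apart overlapped in part between the times. In replicate 3, 31 genes at 1 month and 44 at 2 months were more than 1 log2 unit above the mean of replicates 1 and 2, beyond the median shift of the 200. Of these, 22 were shared, which is 71.0% of the first list and 50% of the second. Lower by as much were 25 and 14 genes, with 7 shared (28% and 50%), and 0 genes went opposite ways. The 22 shared genes had median levels of 34.7, 27.8 and 113 CPM in the 3 libraries at 1 month, 85.4, 55.4 and 201 CPM at 2 months, and 188, 224 and 76.9 CPM in non-operated eyes. They held between 9.46% and 33.7% of the summed level of the 200 genes.

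**Figure D4:**
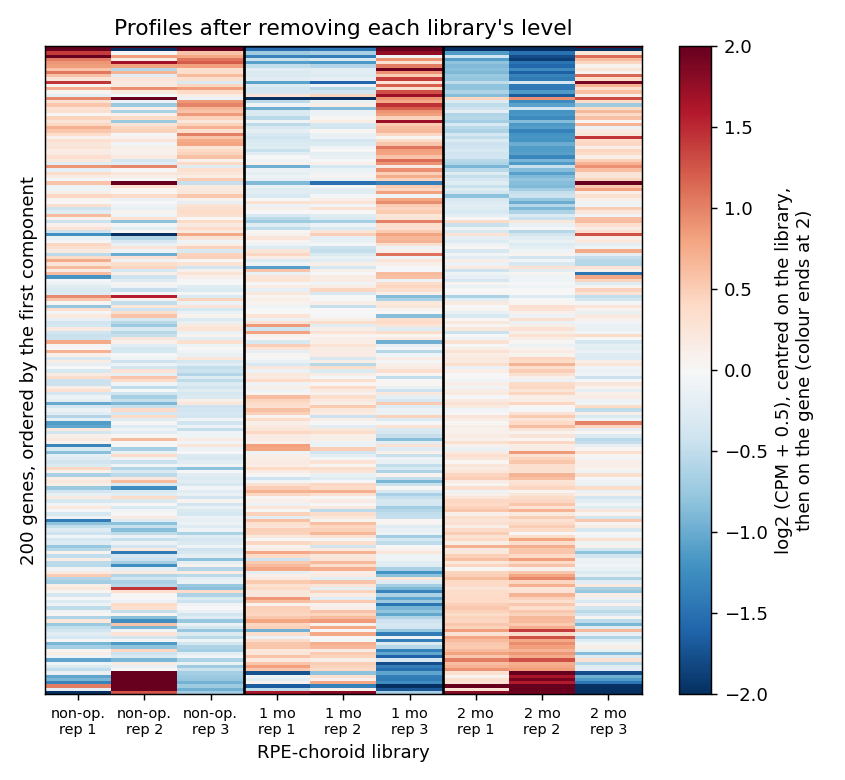
Log2 (CPM + 0.5) of the 200 genes (rows, ordered by their first component) in the 9 RPE-choroid libraries (columns; non-op., non-operated; mo, month), after centring on the library and then on the gene, with colour ends at 2 units. Replicate 3 of both operated groups differs from replicates 1 and 2, which resemble each other (SD 0.31 at 1 month, 0.49 at 2 months).

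A few genes ranged from near absence to abundance across the RPE-choroid libraries. The ratio of the highest RPE-choroid library to the lowest, with 0.5 CPM added to the lowest, had a median of 6.30 over the 200 genes and passed 50 for 9 of them (4.5%), where it did so for 2.74% of the 8890 genes with at least 16 CPM in non-operated RPE-choroid and for 5 of the 516 genes higher in all operated retinas. Some of the 9 followed a group in part, such as the gene in place 190, an example picked from its values and not by a rule. It was at 0.0638, 0 and 0 CPM at 1 month, at 19.2, 35.9 and 0.347 CPM at 2 months, and at 10.1, 49.1 and 1.05 CPM without surgery. Every 1-month value thus lay below all others, while the 2-month and non-operated values also ranged widely within their groups. Others had groups that overlapped, and the pair with the widest range, chosen after its values were seen, is of that kind. A count of 0 in a library allows a level of up to 0.0895 to 0.134 CPM (3 counts, counting error only).

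ENSOCUG00000024933, in place 67, had 0 counts in RPE-choroid replicates 1 and 2 at 1 month and 34.5 CPM in replicate 3. At 2 months it was at 0.346 and 0.276 CPM in replicates 1 and 2 and at 360 CPM in replicate 3. In non-operated eyes it was at 191, 214 and 58.3 CPM. In operated retina it was at 1.66 CPM in replicate 3 at 1 month, at 8.10 CPM in replicate 3 at 2 months, and at 0 counts in the other 4 libraries. In non-operated retina it was at 0.215 CPM, 0 counts and 0.0337 CPM. Replicate 2 had the highest non-operated level in RPE-choroid and no count in retina, where a count of 0 allows up to 0.112 CPM. With values this low, whether the tissues were high together in non-operated eyes cannot be told. Its log2 fold change at 2 months against 1 month was 3.55 with an SE of 2.84 (edgeR adjusted p = 0.395), and the groups overlapped.

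ENSOCUG00000025374, in place 74, was at 83.7 CPM in RPE-choroid replicate 3 at 1 month, and at 0.160 CPM and 0 counts in replicates 1 and 2. At 2 months it was at 0.192, 0.207 and 0.193 CPM, and in non-operated eyes at 310.3, 0.0341 and 77.0 CPM. In retina it had 5.89 CPM in replicate 3 at 1 month, 1.41 and 0.742 CPM in non-operated replicates 1 and 3, and 0 counts in the other 6 libraries. Retina and RPE-choroid libraries of the same group and number were therefore high together, although the labels do not state that they came from the same eye. This was the 1 gene that DESeq2 called lower at 2 months against 1 month, and in the latter group only replicate 3 was high. Its log2 fold change was -7.09 with an SE of 3.26 (edgeR adjusted p = 0.180).

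**Figure D5:**
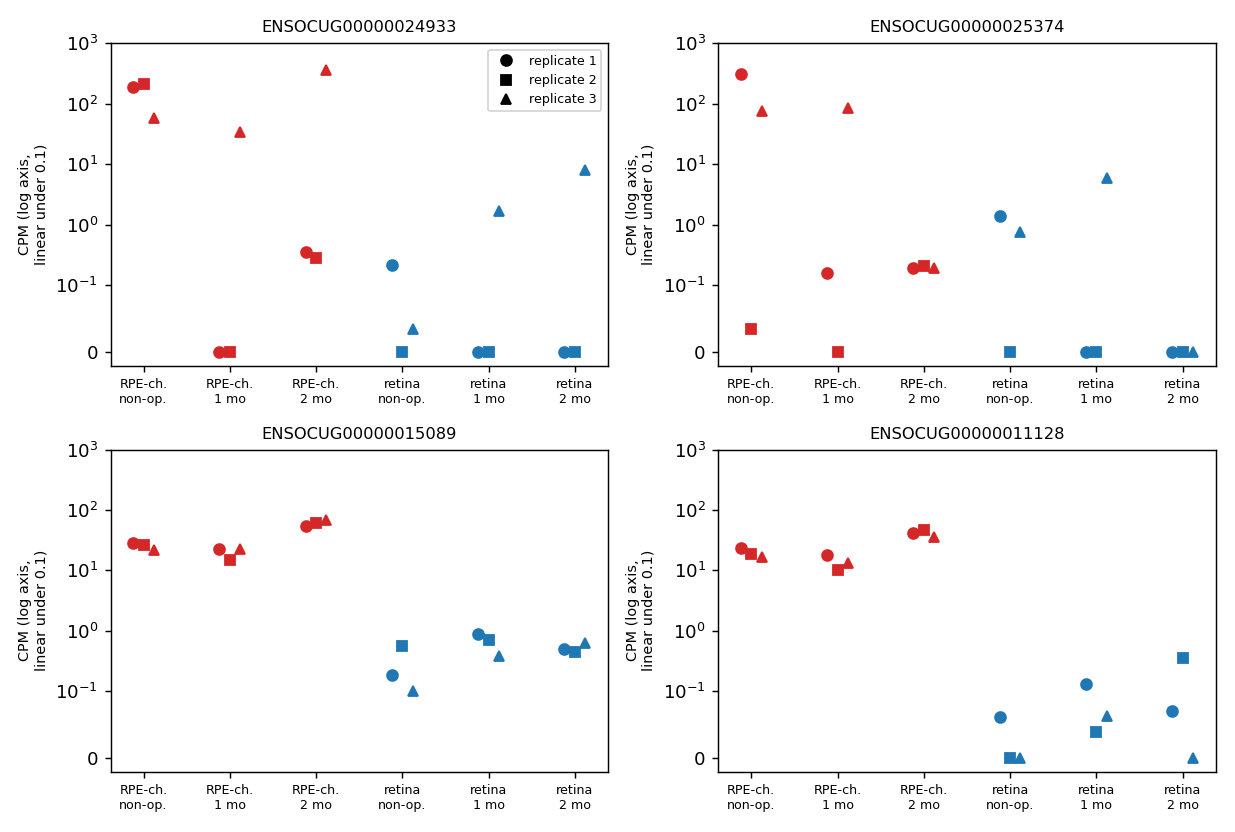
CPM (vertical axis, logarithmic and linear under 0.1) of the 4 genes given by identifier in the 18 libraries (red, RPE-choroid; blue, retina; ch., choroid; non-op., non-operated; mo, month). The upper genes are present in some libraries and near 0 in others of one group, and the lower genes have all 2-month RPE-choroid values above the others.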

How the data were processed

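Poly(A) RNA libraries of 18 rabbit samples were sequenced. The authors deposited raw counts per Ensembl gene, made with HTSeq from reads that had been trimmed and mapped by HISAT2 to OryCun2.0. The 5 HTSeq summary rows were left out. Gene counts per library lay between 22335005 and 33505730, which leaves the low retina levels of these genes on few counts: 136 of the 200 passed the count filter in retina and all 200 in RPE-choroid.

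The 200 genes, the lists and the tests were chosen with earlier results of these data known. Each tissue's 9 libraries were fitted in edgeR 4.0.16 (R 4.3.3; TMM, filterByExpr with a minimum count of 10 and total of 15, two-sided quasi-likelihood test, with a threshold of 0.05 on p-values adjusted over all genes by Benjamini-Hochberg). DESeq2 1.42.0 was an alternative. The standard error is the log2 fold change over the signed root of F. Replicate numbers come from the labels. Same-numbered 1-month and 2-month RPE-choroid samples deviated together (r = 0.18, 0.37 and 0.40 over genes, which are not independent). Against non-operated samples r had both signs, from -0.59 to 0.31. Over the 200 genes r was 0.53, 0.57 and 0.64 between 1 and 2 months, and from -0.35 to 0.50 against non-operated samples. These correlations do not show pairing. The study lists its 1-month and 2-month eyes without induced scarring under different animals. The reported fit had no block, and the replicate number was a block only in alternatives.

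The edgeR test was first tested on simulated data for this comparison. Genes named by identifier were the pair with the smallest p among those with at least 16 CPM and groups that did not overlap, plus the pair with the widest range, chosen after their values were seen. Other genes given by place were taken from the most abundant, not all of which are shown. The exception is the gene in place 190, which was picked from its values. The design named gene symbols and marker lists first, which could not be applied without names.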

Additional observations from a re-analysis of the deposited data

How the results depend on the processing

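The median of the 200 genes at 2 months against 1 month was positive under every alternative run. Genes of the 200 called higher and lower were 129 and 1 with DESeq2, 15 and 0 with scaling on the other RPE-choroid-preferring genes, 87 and 0 with retina-preferring genes taken out, 37 and 0 without a filter on low counts, 64 and 0 where each sample needed 10 counts, 122 and 0 with only the 2 groups and 113 and 0 in a fit over both tissues, against 0 and 0 in the reported fit. Over all genes the same settings called 1988 and 1249, 87 and 8074, 1088 and 437, 396 and 72, 835 and 249, 1963 and 990, and 2231 and 1561. The median was 0.38 with the RPE-choroid scaling, 0.37 with that scaling and the replicate block, and 1.05 with the retina-high covariate. With RLE and upper-quartile normalisation 0 of them were called.

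The comparisons with non-operated eyes use values that chose the genes, so the calls that follow are no evidence of a change. At 1 month against non-operated, the numbers of these genes called lower were 83 with DESeq2, 5 with retina-preferring genes taken out and 55 in the fit over both tissues. Over all genes the same settings called 957 of 16884, 55 of 14244 and 947 of 16846 lower. The median of the 200 genes was -0.43 with the RPE-choroid scaling and -0.50 with the replicate block added. At 2 months against non-operated DESeq2 called 6 higher and 1 lower, where 246 and 104 of 17326 genes were called over all genes. The median of the 200 genes reversed on the RPE-choroid scale to -0.037 and, with the replicate block added, to -0.060. The replicate block alone changed no call among them.

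Leaving out each RPE-choroid library gave 0 to 117 of the genes higher and 0 lower at 2 months against 1 month, with medians of 1.43 to 1.87, and 0 to 1911 and 0 to 812 over all genes. On the RPE-choroid scale it gave 0 to 33 higher and 0 to 1 lower, medians of 0.34 to 0.43, and 0 to 156 and 0 to 10563 over all genes. At 1 month against non-operated it gave 0 to 106 lower and medians of -1.76 to -1.04, and on the RPE-choroid scale 0 to 41 and -0.56 to -0.35. Over all genes 0 to 1480 were lower, and 0 to 161 on the RPE-choroid scale. At 2 months against non-operated the medians were -0.17 to 0.56, negative without non-operated replicate 3, and -0.15 to 0.027 on the RPE-choroid scale. Leave-one-out group means of the summed level moved by less than 1 SD, which holds for any 3 values and is no check. The cause of these differences was not tested, apart from the rescaling, which shifts the all-gene median by construction.

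Other membership rules shared 74 (median of the operated retina values), 131 (no retina condition), 100 (100 genes kept) and 162 to 200 (all other rules) genes with the 200. Their medians at 2 months against 1 month were 1.55 to 1.64 and 0 genes were called. ENSOCUG00000011128 and ENSOCUG00000015089 passed the threshold as higher at 2 months under 8 alternatives each.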
